A study of Mus musculus and Homo sapiens with 41 samples.

Results

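The D cyclins, the G cyclins and the CDK inhibitors of the Cip/Kip and Ink4 families are described here by 10 genes: Ccnd1, Ccnd2, Ccnd3, Ccng1, Ccng2, Cdkn1a, Cdkn1b, Cdkn1c, Cdkn2c and Cdkn2d. They were taken by gene symbol from both RNA-seq tables of a study of PLZF, the transcription factor encoded by Zbtb16, in mouse myeloid progenitors. All 10 were among the 53756 genes of the GMP table, and 9 were among the 13238 genes of the 416b table. Cdkn1c was not listed in the 416b table, which holds genes with a read in both of its libraries.

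GMPs (granulocyte-monocyte progenitors) were sorted from bone marrow as Lineage-, Cd45+, c-Kit+, Sca-1-, Cd34+ and FcγR+ cells. They were wild type (WT) or homozygous for the luxoid loss-of-function allele of Zbtb16 (Zbtb16lu/lu), a germ line allele, both on C57BL/6. Per the methods, marrow of both genotypes (the mutant being Cd45-2) was first transplanted into lethally irradiated C57BL/6 Cd45-1 mice. The GMPs were taken from these hosts weeks later, after reconstitution. The sort is given as Cd45+ in the methods, and the antibodies listed for cytometry include one against the donor form, Cd45-2. Each genotype has 2 libraries here, and 1 of each carries the same date in its column name. These are called library 1 below, and the libraries with dates of their own library 2; the numbers pair nothing else. Nothing in the table says that the libraries came from separate animals. The p-values rest on the spread between these libraries, pooled in part over genes by the limma test, and this spread may be technical. 416b is a Cd34+ mouse myeloid cell line, and it was transduced with a lentivirus for PLZF-Flag or with the Empty vector, both with GFP, and GFP+ cells were taken as a pool. Each condition has 1 library, so its ratios have no replicate check and no test between conditions.

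D cyclins bind the kinases Cdk4 and Cdk6 and start the phosphorylation of the retinoblastoma protein by which cells pass from G1 into S phase. Ink4 inhibitors (Cdkn2c, Cdkn2d) hold Cdk4 and Cdk6, while Cip/Kip inhibitors (Cdkn1a, Cdkn1b, Cdkn1c) bind a wider range of cyclin and kinase complexes. The G cyclins are atypical: Ccng1 is a classical p53 target, and Ccng2 is a FoxO target that is commonly high in cells leaving the cycle. In blood cell progenitors these genes are known for setting the balance between division, quiescence and differentiation.

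In GMPs, values are counts divided by the DESeq2 size factor of the library, called normalized counts below, and they summed to between 38562900 and 40130700 per library. Zbtb16 itself had 705 and 828 normalized counts in the WT libraries against 369 and 269 in the Zbtb16lu/lu libraries, a log2 difference of -1.28 (SE 0.20, limma adjusted p = 0.299), so its RNA was lower but present. Of the 9 GMP markers, the granule genes Mpo and Elane were at 477326 to 552003 and at 36604 to 48674, and of the lymphoid markers, Cd3e and Cd79a were at 7.03 or less in every library, while Nkg7 was at 11056 to 11712 and Ighm at 4457 to 6246. In 416b cells Cd34 was at 11059 and 8823, and the Fc receptor gene Fcgr3 at 3108 and 3085. Of the granule genes, Ctsg was at 2318 and 1676 and Prtn3 at 470 and 435, but Mpo was at 12.1 and 3.30 and Elane was not listed. The WT libraries differed more from each other than the Zbtb16lu/lu libraries did: over all genes tested the median absolute log2 difference was 0.28 within WT and 0.15 within Zbtb16lu/lu. Over the 10 cell cycle genes it was 0.38 and 0.08, and 7 of them differed more within WT, as did 68.6% of all genes tested.

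None of the 10 genes passed the test between the genotypes in GMPs at an adjusted p of 0.08 (limma, over 20531 genes), against a background of 0% of all genes, with a smallest adjusted p of 0.299. At an unadjusted p under 0.05, 4 of the 10 passed, against 9.88% of all genes. This count was 1 with the trend on GC content and gene length removed, where 1689 of 20030 genes passed. It was 2 without an intensity trend, where 1621 of 20531 did. Leaving out a library moved the count in both directions, as it did the count over all genes, so neither was read. Ccng2, Cdkn2c and Cdkn1c were higher in Zbtb16lu/lu, where 5.5% of all genes passed in that direction, and Ccnd2 was lower, where 4.37% did. The values of the genotypes did not overlap for 5 of the 10, namely these 4 genes and Ccng1, against 43.9% of all genes tested. The median log2 difference over the 10 genes was 0.07, beside -0.01 over all genes, with 6 values above and 4 below 0. For a single gene, an exact permutation test of 2 libraries against 2 cannot go below p = 0.333 (two-sided), so it was of no use here.

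**Figure D1:**
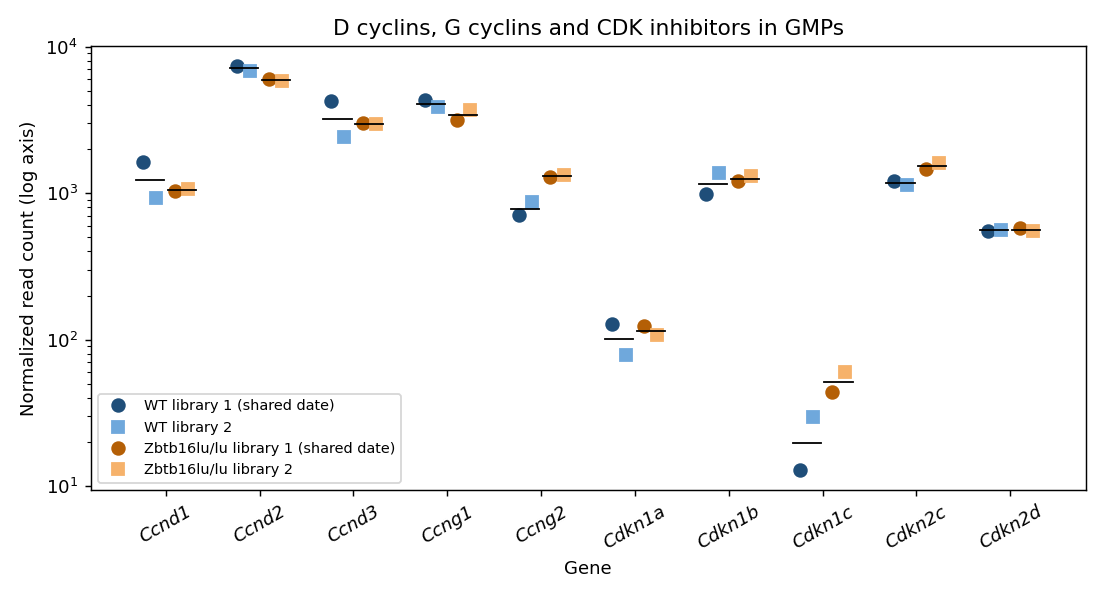
Normalized counts (log axis) of the 10 genes in the 4 GMP libraries, with the geometric mean of each genotype as a line. Ccng2 and Cdkn2c lie higher in both Zbtb16lu/lu libraries and Ccnd2 lower, while the WT libraries stand far apart for Ccnd1 and Ccnd3.

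Of the G cyclins, Ccng2 passed the unadjusted threshold and Ccng1 did not. The 250 bases before the start of Ccng2 (GRCm38.p6, start from GENCODE M21) are shown because this gene had the smallest p of the 10 and the window holds 3 CCAAT boxes, the motif of the factor NF-Y. Capitals mark CCAAT. Of all windows of this length before protein-coding genes, 36.0% held at least 1 and 3.11% at least 3.
Ccng2, chr5:93267007-93267256, plus strand: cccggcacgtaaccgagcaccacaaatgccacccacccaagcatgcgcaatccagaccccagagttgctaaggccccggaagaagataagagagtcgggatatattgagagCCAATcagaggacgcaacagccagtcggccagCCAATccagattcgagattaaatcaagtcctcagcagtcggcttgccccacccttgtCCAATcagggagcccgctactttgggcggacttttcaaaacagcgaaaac
The boxes began 139, 107 and 50 bases before the start of Ccng2. Ccng2 was not alone among the 10 genes in holding 3 boxes. Of the other windows described here, those of Cdkn1b and Cdkn2d held 2 boxes each. The windows of Ccnd3, Cdkn1a and Cdkn2c held none. The FoxO motif GTAAACA was found before Ccnd3 and not before Ccng2, against 2.67% of all windows, and the E2F motifs TTTCGCGC (0.279% of windows) and TTTGGCGC (0.521%) before none of the 6 genes described, both strands being searched. These are matches of letters in a short window and were not tested for binding.

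Ccng2 (chromosome 5, 93267257 to 93276231) had the smallest p of the 10 genes. Its normalized counts were 712 and 866 in WT against 1281 and 1333 in Zbtb16lu/lu, so both mutant libraries lay above both WT libraries. The log2 difference was 0.73 (SE 0.15, 95% interval 0.39 to 1.08), which is 1.66-fold, with an unadjusted p of 0.000980 and an adjusted p of 0.299 by limma. By unadjusted p it ranked 66 of the 20531 genes. The libraries of the shared date differed by 0.85 and the libraries 2 by 0.62, and without overlap these had to share a sign. Leaving out each library in turn gave 0.59 to 0.88.

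Ccng1 (chromosome 11, 40748552 to 40755311) had 4313 and 3874 normalized counts in WT against 3158 and 3690.2 in Zbtb16lu/lu. Both mutant values were the lower ones, with a log2 difference of -0.26 (SE 0.13, 95% interval -0.55 to 0.03, unadjusted p = 0.0751, adjusted p = 0.536 by limma). The difference was -0.45 between the libraries of the shared date and -0.07 between the libraries 2. With the trend on GC content and gene length removed it was -0.10 (unadjusted p = 0.467), and with equal library totals it was -0.26 (unadjusted p = 0.0496). It was -0.15 without Zbtb16lu/lu library 1, -0.37 without Zbtb16lu/lu library 2, -0.18 without WT library 1 and -0.34 without WT library 2, where the unadjusted p was 0.00252. As a ratio of normalized counts within a library, Ccng1 stood 6.06 and 4.47 times above Ccng2 in WT against 2.47 and 2.77 times above it in Zbtb16lu/lu. Per kilobase of exon, Ccng2 made up 9.60% and 12.6% of the G cyclin RNA in WT against 20.7% and 18.9% in Zbtb16lu/lu.

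Over the 4 GMP libraries, 3 genes lay nearest to Ccng2 among 13862 genes whose mean was 100 or more. The measure was the root mean square difference of log2 values centred on each gene's mean, which was 0.02 for Haghl, 0.03 for Arl4c and 0.04 for Pld4. Haghl had 559 and 677 normalized counts in WT against 1034 and 1076 in Zbtb16lu/lu, which follows Ccng2 library by library. Arl4c, a small GTPase, had 191 and 229 in WT against 345 and 341 in Zbtb16lu/lu. Pld4, a lysosomal exonuclease, had 1152 and 1428 in WT against 2063 and 2028 in Zbtb16lu/lu. With 4 libraries and so many genes compared, close matches are a description only.

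Of the D cyclins, Ccnd2 was the one with separate genotypes. Ccnd2 (chromosome 6, 127125162 to 127152193) had 7353 and 6837 normalized counts in WT against 6053 and 5809 in Zbtb16lu/lu, both mutant values being the lower ones. The log2 difference was -0.26 (SE 0.11, 95% interval -0.51 to -0.01), which is 1.20-fold lower, with an unadjusted p of 0.0462 and an adjusted p of 0.499 by limma. It was -0.28 between the libraries of the shared date and -0.24 between the libraries 2. The unadjusted p no longer passed 0.05 with quantile normalization (0.0729), with the GC and length trend removed (0.0751), without an intensity trend (0.135), without WT library 1 (0.0603), without Zbtb16lu/lu library 1 (0.175) or without Zbtb16lu/lu library 2 (0.278).

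Ccnd1 and Ccnd3 varied mainly between the WT libraries. Ccnd1 (chromosome 7, 144929931 to 144939925) had 1638 and 928 normalized counts in WT against 1038 and 1061 in Zbtb16lu/lu, so both mutant values fell between the WT values. Its log2 difference was -0.23 (SE 0.24, unadjusted p = 0.354 by limma), made up of -0.66 between the libraries of the shared date and 0.19 between the libraries 2. Without WT library 1 the difference turned to 0.18, and without WT library 2 it was -0.64. The sign of the Ccnd1 difference thus rested on which WT library was used.

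Ccnd3 (chromosome 17, 47505051 to 47599691), the D cyclin most used by lymphocytes, had 4249 and 2422 normalized counts in WT against 3005 and 2951 in Zbtb16lu/lu. Here too the mutant values fell between the WT values, with a log2 difference of -0.11 (SE 0.23, unadjusted p = 0.646 by limma). It was -0.50 within the shared date and 0.28 between the libraries 2, and it turned to 0.30 without WT library 1 and was -0.51 without WT library 2. A processed copy of the gene, Ccnd3-ps, was counted at 414 and 221 in WT against 288 and 347 in Zbtb16lu/lu. Reads of the gene and its copy could be split in counting, so the level of Ccnd3 is uncertain to that extent.

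Per kilobase of exon, Ccnd2 was the main D cyclin of every GMP library. It made up 48.4% and 60.6% of the D cyclin RNA in WT against 53.3% and 52.4% in Zbtb16lu/lu. Ccnd3 made up 30.01% and 23.0% in WT against 28.4% and 28.5% in Zbtb16lu/lu. The share of Ccnd1 was 21.6% and 16.4% in WT against 18.3% and 19.1% in Zbtb16lu/lu, so for all 3 the mutant libraries lay within the range of the WT libraries. Summed per kilobase, the D cyclins reached 1614 and 1199.65 in WT against 1206 and 1179 in Zbtb16lu/lu. The lead of Ccnd2 was smaller with the longest transcript in place of all exons. Ccnd2 then made up 43.0% and 55.2% in WT against 47.5% and 46.7% in Zbtb16lu/lu. By the same length Ccnd3 made up 40.8% and 32.1% in WT against 38.7% and 38.9% in Zbtb16lu/lu.

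**Figure D2:**
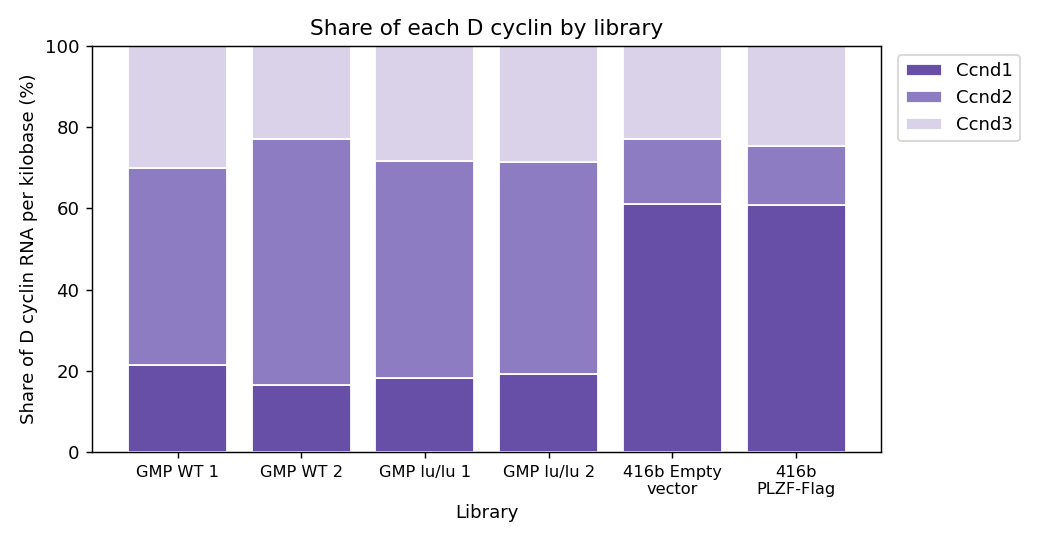
Share of Ccnd1, Ccnd2 and Ccnd3 in the D cyclin RNA of each library (normalized counts per kilobase of exon, in percent of their sum). Ccnd2 makes up 48.4% to 60.6% in GMPs, and Ccnd1 makes up 61.1% and 60.8% in 416b cells. By the longest transcript these shares are 43.0% to 55.2% for Ccnd2 in GMPs and 50.4% and 49.6% for Ccnd1 in 416b cells.

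Of the Ink4 inhibitors, Cdkn2c differed more than Cdkn2d. Cdkn2c (p18; chromosome 4, 109660876 to 109667189) had 1206 and 1130.3 normalized counts in WT against 1458 and 1617 in Zbtb16lu/lu, both mutant values being the higher ones. The log2 difference was 0.39 (SE 0.13, 95% interval 0.09 to 0.70), which is 1.31-fold, with an unadjusted p of 0.0165 and an adjusted p of 0.439 by limma. It was 0.27 within the shared date and 0.52 between the libraries 2. With the trend on GC content and gene length removed it was 0.19 (unadjusted p = 0.141), and the unadjusted p was 0.0546 without an intensity trend and 0.0681 or 0.205 without Zbtb16lu/lu library 1 or 2. Cdkn2d (p19; chromosome 9, 21288410 to 21291407) had 553 and 564 in WT against 576 and 554 in Zbtb16lu/lu. This was the most even of the 10 genes, with a log2 difference of 0.02 and a 95% interval from -0.34 to 0.37, so differences of that size were not detectable here.

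Of the Cip/Kip inhibitors, Cdkn1c (p57, an imprinted gene and a known marker of quiescent stem cells; chromosome 7, 143458339 to 143461050) was the lowest in level. Its normalized counts were 12.9 and 29.9 in WT against 44.2 and 60.2 in Zbtb16lu/lu, and both mutant values were the higher ones. The log2 difference was 1.34 (SE 0.51, 95% interval 0.17 to 2.52) with an unadjusted p of 0.0295 and an adjusted p of 0.470 by limma, on few counts. It was 1.70 within the shared date and 0.99 between the libraries 2. The unadjusted p was 0.0562 with no filter on low genes, 0.0777 with the GC and length trend removed, and 0.0699 or 0.205 without Zbtb16lu/lu library 1 or 2. Without WT library 1 the difference was 0.77 (unadjusted p = 0.0787), and without WT library 2 it was 1.92.

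Cdkn1a and Cdkn1b had overlapping genotypes. Cdkn1a (p21, the main p53-induced inhibitor; chromosome 17, 29090976 to 29100727) had 128 and 79.1 normalized counts in WT against 123 and 107 in Zbtb16lu/lu. The log2 difference was 0.19 (SE 0.32, unadjusted p = 0.562 by limma), and it turned to -0.16 without WT library 2 and was -0.06 within the shared date. Cdkn1b (p27, which holds cyclin E and A complexes with Cdk2; chromosome 6, 134920401 to 134925513) had 984 and 1362 in WT against 1211 and 1301 in Zbtb16lu/lu. Its log2 difference was 0.12 (SE 0.17, unadjusted p = 0.519 by limma), and it turned to -0.12 without WT library 1 and was 0.35 without WT library 2. For both genes the mutant values lay within the range of the WT values.

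**Figure D3:**
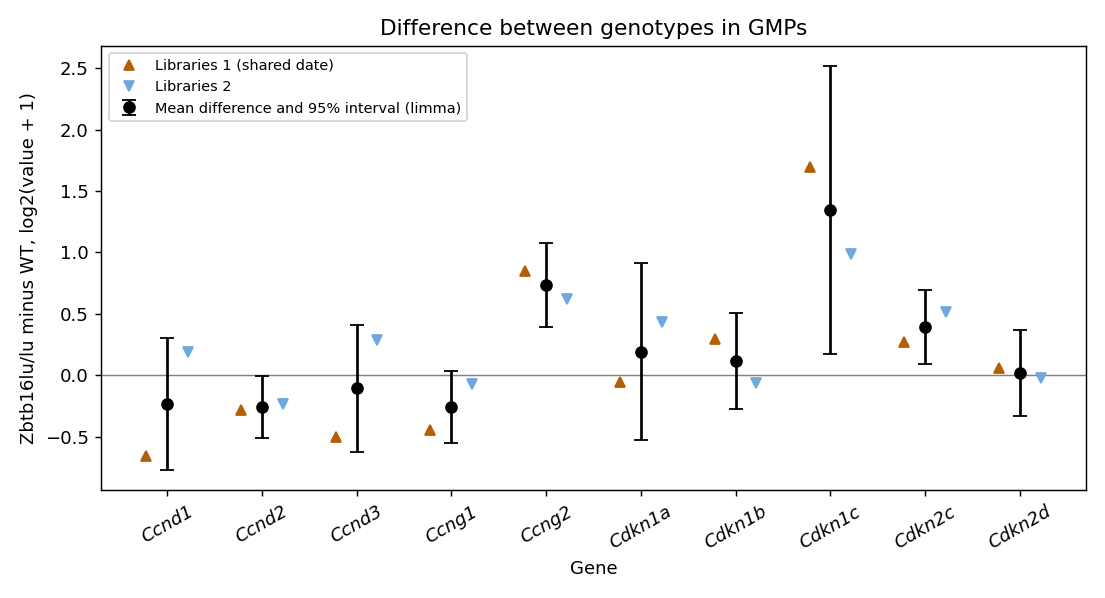
Log2 difference between Zbtb16lu/lu and WT GMPs for each gene (black, mean difference with its 95% interval from limma), with the difference between the libraries of the shared date and between the libraries 2. Both pairs lie on the same side of 0 for Ccng2, Cdkn2c, Cdkn1c, Ccnd2 and Ccng1, and on opposite sides for the other 5 genes. Genotypes that do not overlap, as for the first 5 named, can give no other result.

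Markers of maturing cells differed between the genotypes in the same libraries, although no marker of any list passed an adjusted p of 0.08. The unadjusted counts below stand against 5.5% of all genes higher and 4.37% lower in Zbtb16lu/lu. Of the 7 monocyte markers, 6 were higher in Zbtb16lu/lu at an unadjusted p under 0.05 (Ly6c2, Csf1r, F13a1, Ccr2, Ly86 and Irf8), and the sum of the list was 84848 to 98124 normalized counts in WT against 114811 to 121404 in Zbtb16lu/lu. Of the 10 mature neutrophil markers, 6 were higher at that level (Ltf, Camp, Ngp, Mmp8, Mmp9 and Retnlg), but the sums, 6473 to 14171 in WT against 10501 to 21023 in Zbtb16lu/lu, overlapped. The abundant members S100a8, S100a9 and Lcn2 did not pass, and within the shared date they were lower in Zbtb16lu/lu, with log2 differences of -0.64, -0.54 and -0.42, while between the libraries 2 these were 1.22, 2.29 and 0.61. In WT, Mmp9 was at 15.9 and 0 and Retnlg at 29.8 and 3.86. Both met the filter of at least 10 in at least 2 libraries only through their Zbtb16lu/lu values, so their place among the 6 depends on the filter. Of the 9 GMP markers, Elane was higher, and of the 5 mast cell and basophil markers, Ms4a2 and Prss34 were lower. Of the 2 lymphoid markers tested, Ighm was higher. No erythroid or megakaryocyte marker passed, but these lists differed within each genotype, with erythroid sums of 451 and 1372 in WT against 429 and 1171 in Zbtb16lu/lu. Megakaryocyte sums were 1988 and 4262 in WT against 1545 and 2725 in Zbtb16lu/lu. The lineage depletion of the sort takes out cells with Gr-1, Cd11b or Ter-119. In bulk RNA, fewer cells of a type and less RNA per cell cannot be told apart, and the part of these cells in the values of the cyclins and inhibitors was not tested.

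The partners and targets of these genes were read from lists of known members, with no gene passing an adjusted p of 0.08 in GMPs. Counts of genes that passed an unadjusted p of 0.05 in these lists stand against 5.5% of all genes higher and 4.37% lower in Zbtb16lu/lu. Of the 6 G1 kinases and pocket proteins, none passed an unadjusted p of 0.05, between Rbl1 (p107) at a log2 difference of -0.15 and Cdk2 at 0.12, with a median of -0.02. Of the 15 E2F factors and G1/S targets, 2 passed an unadjusted p of 0.05 as lower and none as higher, with a median of -0.10. Ccne2, the cyclin that activates Cdk2 at S phase entry, had 2283 and 2229 normalized counts in WT against 1557 and 1929 in Zbtb16lu/lu (log2 difference -0.38, unadjusted p = 0.0247). Ccna2, which drives S phase and entry into mitosis, had 11105 and 11065 in WT against 8973 and 9380 in Zbtb16lu/lu (-0.27, unadjusted p = 0.0326). For both, the mutant libraries lay below the WT libraries, in a table where 43.9% of all genes had separate genotypes.

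Of the 17 proliferation genes, 4 passed an unadjusted p of 0.05 as lower in Zbtb16lu/lu and none as higher, with a median log2 difference of -0.12. These were Bub1 (-0.41), Ccnb1 (-0.34), Aurka (-0.33) and Cdk1 (-0.26), and their unadjusted limma p-values ran from 0.00724 for Bub1 to 0.0404 for Cdk1. The other genes of the list did not pass, among them the 6 Mcm genes of the replicative helicase, from -0.06 (Mcm4) to 0.23 (Mcm7), and the mitotic genes Plk1 (-0.23), Birc5 (-0.16), Cdc20 (-0.12) and Ccnb2 (-0.08).

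Of the 7 genes of p27 and cyclin D turnover, none passed, between Skp2, the ubiquitin ligase subunit that degrades p27 (-0.29), and Fbxo31 (0.26), with a median of 0.01. Cdkn3 was the one other inhibitor tested (-0.10), since Cdkn2a and Cdkn2b were at 1.03 or less in every GMP library. Of the 19 p53 genes tested, none passed, between Tnfrsf10b (-0.42) and Bbc3 (0.66), with a median of -0.03. Of the 15 FoxO factors and targets, 2 passed an unadjusted p of 0.05 as higher and none as lower, with a median of 0.14. Pik3ip1, an inhibitor of PI3 kinase, had 1756 and 2392 in WT against 2947 and 2862 in Zbtb16lu/lu (0.50, unadjusted p = 0.0117). Irs2, an adaptor of the insulin receptor, had 412 and 356 in WT against 534 and 529 in Zbtb16lu/lu (0.47, unadjusted p = 0.0231).

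In level per kilobase of exon, Ccng1 was the highest of the 10 genes in WT GMPs, at 1166 ± 88.3 (SD, n = 2, as for the other levels). Ccnd2 followed at 754 ± 38.8 and Cdkn2c at 435 ± 20.0. Ccnd3 (380.1 ± 147) and Cdkn2d (355 ± 5.09) came next, and the ranges of Cdkn2c and Ccnd3 and those of Ccnd3 and Cdkn2d overlapped. Ccnd1 (272 ± 107) and Cdkn1b (258 ± 58.6) overlapped as well. Ccng2 was at 145 ± 20.0, Cdkn1a at 29.2 ± 9.79 and Cdkn1c at 10.5 ± 5.89, each apart from its neighbours. In Zbtb16lu/lu GMPs Ccng2 was at 239 ± 6.71 per kilobase, above Ccnd1 at 223 ± 3.37. Lengths were taken over all exons of a gene, and with the longest transcript in their place Ccnd2 was at 1121 and Ccnd3 at 865 in WT, which put Ccnd3 above Cdkn2c.

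In 416b cells Zbtb16 was at 382 normalized counts with Empty vector and at 2541 with PLZF-Flag, where reads of the transgene can be included. The values rest on 54529788 reads on listed genes in Empty vector and on 19995794 in PLZF-Flag. None of the 9 genes listed passed a log2 ratio of 0.5 in either direction, against 6.24% of the 11836 genes with a mean of at least 10. The largest ratio among them was -0.18 (Ccnd2), which 24.8% of all these genes exceeded in size. The median over the 9 genes was 0.03. The 95% intervals are exact binomial (Clopper-Pearson) intervals from the reads, and they cover counting error only.

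Of the D cyclins, Ccnd2 had 12968 normalized counts with Empty vector against 11415 with PLZF-Flag (log2 ratio -0.18, 95% interval -0.22 to -0.14). Ccnd1 was at 24724 and 24092 (-0.04, interval -0.06 to -0.01). Ccnd3 was at 17244 and 18247 (0.08, interval 0.05 to 0.11). The ratios of these abundant genes were small, and their intervals are narrow because of the many reads, not because of replicates.

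Among the G cyclins, Ccng1 was at 4155 and 4400.3 normalized counts (log2 ratio 0.08, interval 0.02 to 0.15) and Ccng2 at 1392 and 1424 (0.03, interval -0.08 to 0.15). Ccng1 was 2.99 times Ccng2 in Empty vector and 3.09 times in PLZF-Flag. The interval of Ccng2 takes in 0, so no difference was detectable by counting alone.

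Of the inhibitors, Cdkn2c was at 1653 and 1820.1 (log2 ratio 0.14, interval 0.04 to 0.24), and its PLZF-Flag value was not a whole number of reads. Cdkn1a was at 4399.7 and 4521 (0.04, interval -0.02 to 0.10), Cdkn2d at 1968 and 2014 (0.03, interval -0.06 to 0.13), and Cdkn1b at 925 and 939 (0.02, interval -0.12 to 0.16). Counting error alone thus left Cdkn1a, Cdkn1b, Cdkn2d and Ccng2 with 0 inside the interval, 3 genes (Ccnd3, Ccng1, Cdkn2c) above it and 2 (Ccnd1, Ccnd2) below it.

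**Figure D4:**
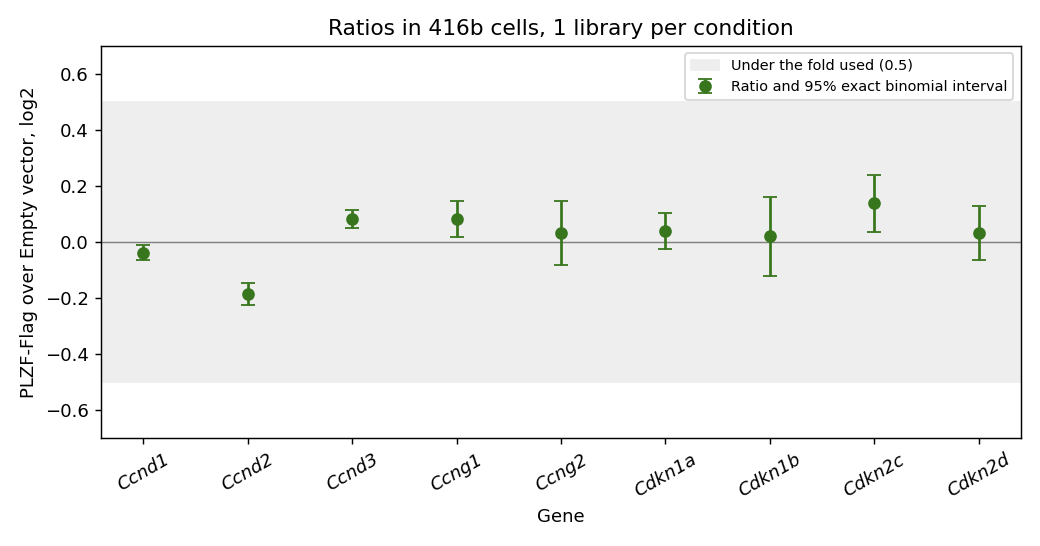
PLZF-Flag over Empty vector, as a log2 ratio, for the 9 genes listed in 416b cells, with 95% exact binomial intervals that cover counting error only (1 library per condition). All ratios lie inside the grey band under 0.5, from -0.18 for Ccnd2 to 0.14 for Cdkn2c.

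The related genes were also read in 416b cells. In none of the 7 lists did a gene with a mean of at least 10 pass a log2 ratio of 0.5. The ratios ran from -0.23 (Cdk6) to 0.03 (Cdk4) for kinases and pocket proteins, from -0.13 (Ccne2) to 0.04 (E2f4) for E2F factors and G1/S targets, and from -0.17 (Ccnb1) to 0.27 (Mki67) for proliferation genes. They ran from -0.28 (Fbxw7) to 0.13 (Skp2) for turnover genes, from -0.16 (Perp) to 0.32 (Zmat3) for p53 genes, and from -0.38 (Tsc22d3) to 0.40 (Sesn3) for FoxO genes. Cdkn2b, an Ink4 inhibitor that was at 1.00 or less in GMPs, had 2057 and 1900.3 normalized counts in 416b cells (-0.11), and Cdkn3 had a ratio of 0.06. Of 24 cell type markers with a mean of at least 10, 3 were past the fold, against 6.24% of all genes, and all 3 had low counts. With Empty vector and PLZF-Flag, Ccr2 was at 144 and 81.0 normalized counts, Mcpt8 at 30.9 and 13.2, and Gata1 at 15.1 and 43.0.

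In 416b cells the order of the levels was another one. Per kilobase of exon in Empty vector, Ccnd1 was the highest at 5250.4, followed by Ccnd3 at 1965 and Ccnd2 at 1378. Cdkn2d was at 1250.35, Cdkn1a at 1238 and Ccng1 at 1183. Below them came Cdkn2c at 615, Ccng2 at 255 and Cdkn1b at 203. In rank among the genes, Ccnd1 was thus 1 in 416b cells and 6 in WT GMPs, and Cdkn1a was 5 and 9. With the longest transcript in place of all exons, Cdkn1a was at 2115 in Empty vector, rank 3, above Ccnd2 at 2049 and Cdkn2d at 1383, and Ccnd1 stayed first. The tables were normalized separately and the libraries made with different kits (SMART-Seq for 416b, total RNA with rRNA removal for GMPs), so the levels themselves were not compared across cell types.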

How the data were processed

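The RNA-seq tables hold 2 libraries of each GMP genotype and 1 library of each 416b condition. To make them, the authors used subread-align on mm10 and featureCounts (version 1.5.0 in the submitters' notes) and scaled each library by its DESeq2 size factor, which makes the deposited signal values normalized counts. Their columns of means, log values, fold changes and p-values were not used. The genes and lists were chosen with earlier results of these data known.

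GMP values were tested with limma-trend (limma 3.58.1, R 4.3.3) on log2(value + 1) for 20531 genes with at least 10 in at least 2 libraries, with p-values adjusted by Benjamini-Hochberg and called under 0.08, on all 4 libraries without a block. Log2 differences understate changes of low genes. The scripts were tested on simulated data. The methods name 3 RNA extractions and 2 libraries per genotype are in the table. A count model was not run: all GMP values were whole multiples of the column's smallest value, within 0.05, but that value is near 1, and reads were not taken as recovered. Depth in reads is therefore not given for GMPs.

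In 416b cells 83.2% and 85.3% of values were whole multiples of the smallest value (0.605 and 1.65), the value of 1 read, and other values were rounded to whole reads for the intervals. Log2 ratios used a pseudocount of 1. Exon lengths, positions and starts came from GENCODE M21 on GRCm38, and windows were read from GRCm38.p6 for 7 of the 10 genes, 1 of which is not reported here. Genes of each list with an unadjusted p under 0.05 were named, or else the highest and lowest. Alternatives were other filters, pseudocounts (0.1 and 10), scalings, GC and length trends, variance priors and each library left out. Whether counting used strand is not given in the sources used here. Python 3.11.15, scipy 1.17.1 and pandas 2.3.3 were used.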

Additional observations from a re-analysis of the deposited data

How the results depend on the processing

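The number of cell cycle genes with an unadjusted p under 0.05 in GMPs was 4; it was 1 with the trend on GC content and gene length removed, 2 without an intensity trend and 3 to 5 under the other filters, pseudocounts, scalings and the robust prior. With a library left out this number moved in both directions, as did that over all genes at the same unadjusted level, so neither was read. The count of all genes called was 0 under every filter, pseudocount, scaling and prior and at a threshold of 0.05, with 1621 to 2782 genes at an unadjusted p under 0.05. Leaving out a library gave 1 to 4662 called genes: 4662 without WT library 1, 2749 without WT library 2, 64 without Zbtb16lu/lu library 1 and 1 without library 2. Such fits have 1 residual degree of freedom and assume that the lone library varies like the other genotype, whose spread was smaller in Zbtb16lu/lu. At an adjusted p under 0.08, Ccng2, Cdkn2c and Ccnd3 then passed without WT library 1, all of the 10 but Cdkn1a and Cdkn2d without WT library 2, and none without either Zbtb16lu/lu library. The 5 genes without overlap stayed 5 under the scalings and with no filter and were 4 with a mean of at least 100, which leaves out Cdkn1c. Leaving out a library can only keep or raise this count, so it was not read there.

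Ccng2, Cdkn2c, Cdkn1c, Ccnd2 and Ccng1 kept their sign under every alternative that could be fitted. Their genotypes did not overlap, so leaving out a library or using the shared date alone could not turn the sign. With 1 library left out, the difference turned sign for Ccnd1 (-0.64 to 0.18) and Ccnd3 (-0.51 to 0.30), both without WT library 1, for Cdkn1b (-0.12 to 0.35), also without WT library 1, for Cdkn1a (-0.16 to 0.54), without WT library 2, and for Cdkn2d (-0.012 to 0.044), without Zbtb16lu/lu library 1. Cdkn2d was also at -0.10 with the GC and length trend removed, and Cdkn1a at -0.056 with the shared date alone. The cause was not tested. In 416b cells 0 of the 9 cell cycle genes passed the fold under every alternative. Over all genes, 514 to 766 passed the fold of 0.5 and 167 a fold of 1. With the longest transcript, 8 of the 10 genes kept their rank of level in WT GMPs.

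No paired analysis was possible because the library columns carry no replicate numbers and 1 date alone is shared. The planned count models (edgeR, DESeq2) were not run.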
